A study of Mus musculus with 12 samples.

Results

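Small nucleolar RNAs (snoRNAs) and their host genes were followed in monocytes and macrophages purified magnetically from mouse bone marrow, with and without a human leukemia. The set held every gene whose array cluster carries 1 platform symbol starting with Snora (H/ACA box RNAs), Snord (C/D box RNAs) or Snhg (snoRNA host genes), with 1 cluster per gene, the one of highest mean intensity over the 12 arrays. It comprised 70 genes, 18 Snora, 44 Snord and 8 Snhg, among 65956 transcript clusters. Of these, 62 were bright enough to be tested: all 18 Snora, 41 Snord and 3 Snhg. Among the 8 dim genes were 5 hosts (Snhg7os, Snhg9, Snhg11, Snhg14 and Snhg18) and 3 C/D RNAs (Snord64, Snord88c and Snord110).

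The comparison had 4 groups of 3 mice, with 1 Clariom D array per mouse. All animals were Rag2-/-gamma c-/- on a BALB/c background, the MEC1 recipients and the age-matched mice without MEC1 alike, and such mice lack T, B and natural killer cells. MEC1, a single B cell line from a human chronic lymphocytic leukemia, had been given intravenously. Marrow was taken at 21 d, the early stage, from mice aged 11 weeks, with and without MEC1, and at 31 d, the late stage, from mice aged 13 weeks, with and without MEC1. Mouse numbers in the labels mark separate animals. Changes below are log2 intensities of MEC1 mice minus those of mice without MEC1 on the same day, so that 1 unit is a doubling. A change was called where limma's moderated test passed a Benjamini-Hochberg adjusted p of 0.05 over all 37240 tested clusters.

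SnoRNAs work in the nucleolus, where each forms a particle with a fixed set of proteins and pairs with target RNA. C/D RNAs carry fibrillarin and mostly guide ribose methylation of ribosomal RNA, whereas H/ACA RNAs carry dyskerin and mostly guide conversion of uridine to pseudouridine. A few take part in cutting the ribosomal RNA precursor. In mammals most are released from introns of host genes, many of which encode ribosomal or nucleolar proteins, while Snhg genes are hosts whose spliced RNA is mainly non-coding.

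Several measures of the arrays and of cell composition moved with MEC1, and their part in the results below was not tested. The 4 hybridisation controls, added to the sample after RNA preparation, averaged a log2 intensity of 11.92 ± 0.12 with MEC1 and 10.81 ± 0.09 without at 21 d, and 12.57 ± 0.54 with MEC1 and 10.62 ± 0.13 without at 31 d (SD, n = 3 each). Over both days the difference was 1.53 (exact permutation test within days, two-sided, p = 0.005, the smallest this design can give), and MEC1 31 d replicate 3 was the highest of the 12 arrays at 13.18. The array median was higher with MEC1 by 0.20 at 21 d and by 0.43 at 31 d. In the list of 7 monocyte and macrophage genes, all above the array median on every array, 6 fell at 31 d and 0 rose. Their mean level ranged over 10.36 to 12.25 with MEC1 and 13.01 to 13.02 without. All 4 erythroid genes fell at 31 d, with a mean level of 5.12 to 5.44 with MEC1 and 10.18 to 10.73 without. At 21 d 3 of these 4 had already fallen, with a median change of -2.59 and mean levels of 6.03 to 8.87 with MEC1 and 9.06 to 10.67 without. Of 3 tested dendritic cell genes 1 fell at 21 d and 3 at 31 d, and of 7 neutrophil genes 0 were called at 21 d in limma (0 had an unadjusted p under 0.05) and 3 fell at 31 d. No monocyte and macrophage gene was called at 21 d in limma (4 had an unadjusted p under 0.05). Of 4 tested B lineage genes 2 rose at 21 d and 3 at 31 d, among them Pax5, the B cell identity factor, by 2.23 at 31 d (SE 0.16, adjusted p = 8.5e-05, limma). Whether human RNA of MEC1 was read by the mouse probes, here or in the rises below, was not tested. These counts stand beside 1.83% of all clusters called higher and 2.51% lower at 21 d, and 22.6% and 21.1% at 31 d. Fewer cells of a type and less RNA per cell cannot be told apart in such bulk samples.

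At 21 d snoRNAs and hosts showed few changes, and at 31 d they changed in both directions, with falls larger than rises. At 21 d 1 of the 62 tested genes was called, Snora35, which rose and had entered the test through the MEC1 arrays alone, where 4.34% of all clusters were called, 1.83% higher and 2.51% lower (8 of the 62 had an unadjusted p under 0.05). At 31 d 22 were called, 9 higher and 13 lower, which is 35.5% of the 62 against 43.8% of all clusters (22.6% higher and 21.1% lower). Their share was thus below that of the array as a whole. The median change over the 62 genes was -0.15 at 21 d and -0.41 at 31 d, beside medians of 0.02 and 0.04 over all clusters. The extremes at 31 d were -3.68 and 2.03. Groups did not overlap in 7 of the 62 genes with MEC1 higher and in 6 with MEC1 lower at 21 d. Over all tested clusters these shares were 14.9% and 13.7%. At 31 d the counts were 12 and 18 of the 62, beside 31.2% and 28.4% of all clusters. Called genes named by size of change were picked among those with groups apart, so that separation is no added support. For the mean of both days 8 genes were higher and 13 lower, where 48.3% of all clusters were called, 24.9% higher and 23.3% lower. No gene had a called difference between the days (12 had an unadjusted p under 0.05), and neither did the array beyond 0.00269% of its clusters. The split at 31 d depended on scaling: with every array centred on its median 3 genes were higher and 24 lower. Without MEC1 31 d replicate 3, 13 genes were called, 3 higher and 10 lower, and a fit that took the hybridisation controls as covariate called none (limma, adjusted p). Counts of these other fits stand without the share of all clusters called in the same fit, so they do not set the members apart from the array.

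**Figure D1:**
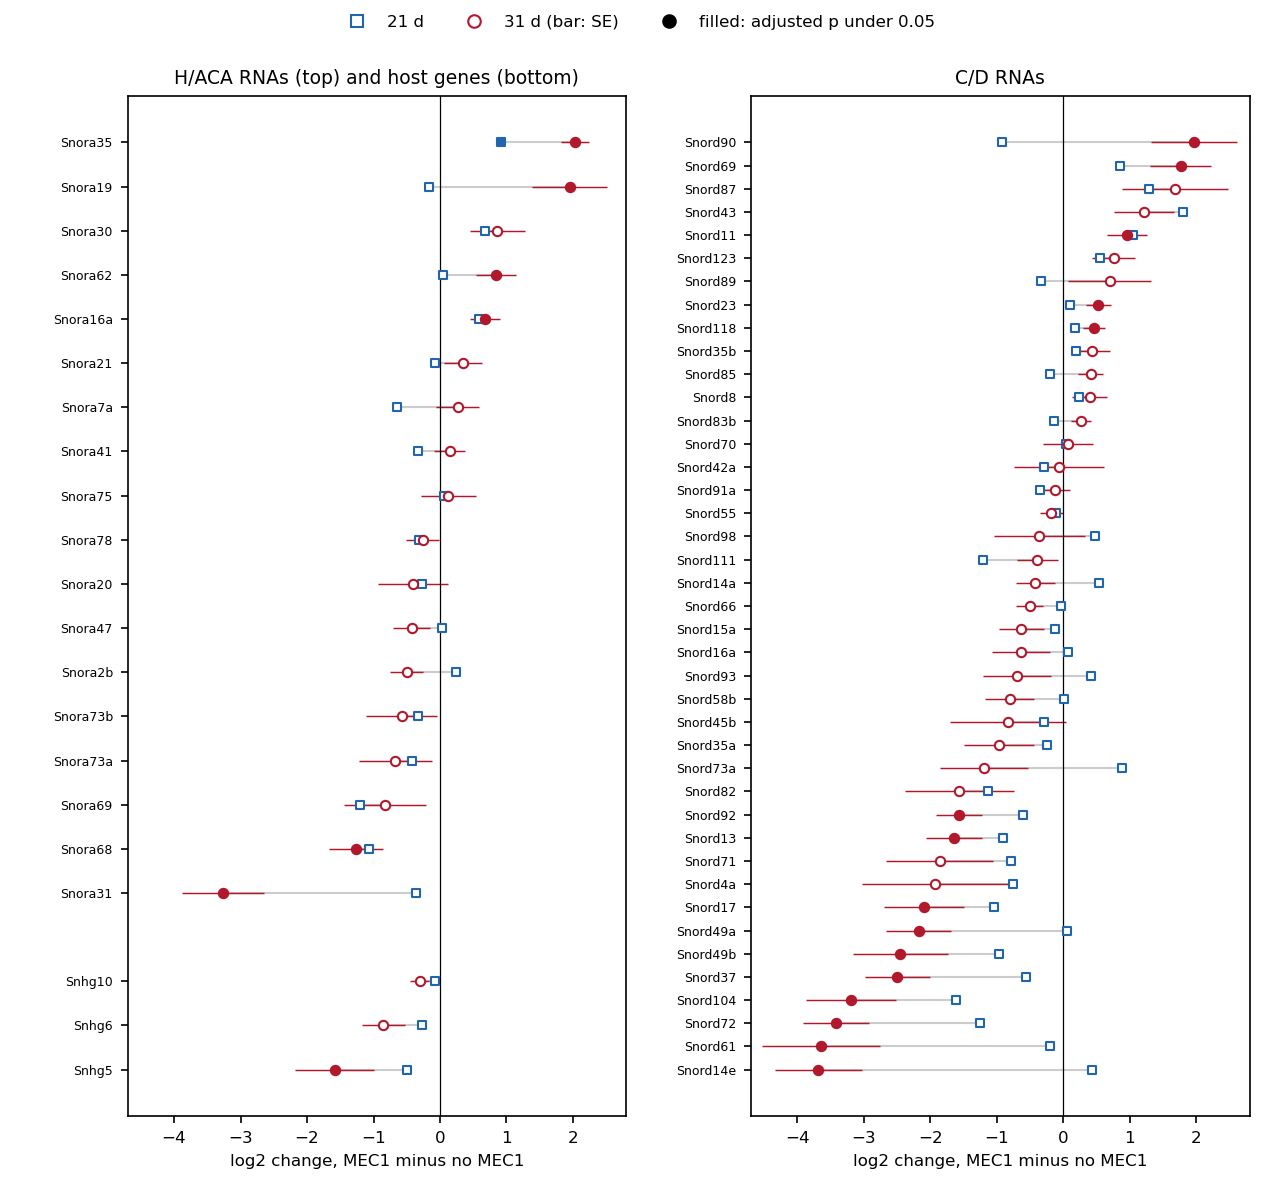
Change of each of the 62 tested genes, in log2 intensity of MEC1 mice minus mice without MEC1, at 21 d (squares) and 31 d (circles with SE), filled where the adjusted p was under 0.05. At 31 d the filled C/D symbols reach down to -3.68 and up to 1.97, and 1 square, Snora35, is filled at 21 d.

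Among the RNAs with a part in processing the ribosomal RNA precursor, Snord14e and Snord13 fell at 31 d, Snord118 rose slightly, and Snora73a and Snora73b did not pass. Snord14e belongs to the U14 family, which is needed to make small-subunit ribosomal RNA and also guides a methylation. Its log2 intensity was 11.64, 13.20 and 11.99 in MEC1 mice at 31 d, against 16.59, 15.88 and 15.41 in mice without MEC1. The groups lay 2.21 apart, and the change of -3.68 (SE 0.65, adjusted p = 0.0022, limma) was a 12.8-fold lower intensity and the largest fall among the 62 genes. At 21 d the same RNA had 12.08, 12.56 and 14.83 in MEC1 mice, against 12.85, 12.21 and 13.11 in mice without MEC1, with overlapping groups. The mice without MEC1 also stood apart between days: their mean was 15.96 at 31 d and 12.72 at 21 d, a difference of 3.24 (SE 0.65, adjusted p = 0.169, limma). That comparison of days, chosen after seeing the data, called none of the 62 genes and 0.00806% of all clusters, and 10 of the 62 had an unadjusted p under 0.05. Copies of Snord14 in the same host are similar in sequence, so their probes may share signal.

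Snord13 (U13), which acts on small-subunit ribosomal RNA and lies in no RefSeq gene, was 13.61, 14.02 and 13.61 in MEC1 mice at 31 d, against 15.73, 15.58 and 14.88 in mice without MEC1. The groups were 0.86 apart, and the change was -1.65 (SE 0.42, adjusted p = 0.0114, limma). A second Snord13 cluster changed by -0.49 (adjusted p = 0.399), and the average of both clusters did not pass, at -1.07. Snord118 (U8), required for large-subunit ribosomal RNA, was dim, at 4.63, 4.18 and 4.15 in MEC1 mice and 3.84, 4.02 and 3.72 in mice without MEC1 at 31 d. The groups did not overlap and the change was 0.46 (SE 0.16, adjusted p = 0.0386, limma), but it was 0.03 with arrays centred on their median, and the call was lost in 6 of the 12 fits without 1 array (0.30 to 0.46, the lowest without MEC1 31 d replicate 1). Snora73a and Snora73b (U17), H/ACA RNAs of precursor cleavage within the host Snhg3, changed by -0.67 (adjusted p = 0.325) and -0.58 (adjusted p = 0.39) at 31 d, and these copies too are close in sequence. A second Snora73b cluster changed by -1.17 at 31 d (adjusted p = 0.143, limma).

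Of the 18 H/ACA RNAs 4 rose and 2 fell at 31 d, with a median change of -0.07. Those called were 33.3% of the class, below the 43.8% of all clusters (22.6% higher and 21.1% lower). Snora35 rose at both days. It is transcribed within Htr2c, the gene of a serotonin receptor, and in humans is known as a brain RNA with no established ribosomal target. At 31 d Snora35 had 5.25, 5.43 and 5.48 in MEC1 mice, against 3.23, 3.21 and 3.63 in mice without MEC1, a change of 2.03 (SE 0.21, adjusted p = 0.0003, limma). At 21 d it had 4.99, 4.54 and 4.17 with MEC1, against 3.46, 3.81 and 3.70 without, a change of 0.91 (SE 0.21, adjusted p = 0.0411, limma). The groups were apart at both days, and without MEC1 every value lay below its own array's median. Snora35 was the only one of the 62 genes to enter the test through the MEC1 arrays alone, since all 6 of them and none of the others put it above the array median. A gene that enters in this way had to differ, so its calls are no support for a rise of the class. With no filter on dim clusters its adjusted p at 21 d was 0.0498 (limma). Htr2c itself was too dim to test. The call at 21 d was kept in 2 of the 12 fits without 1 array and lost with arrays centred on their median (0.71). That at 31 d was lost only with the hybridisation-control covariate (1.26), among the alternatives run.

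Snora19, which lies within Eif3a, a gene of a translation initiation factor, had 6.80, 8.84 and 8.35 in MEC1 mice at 31 d, against 5.53, 6.51 and 6.10 in mice without MEC1. The nearest values were 0.29 apart and the change was 1.95 (SE 0.56, adjusted p = 0.0188, limma). The call was lost without MEC1 31 d replicate 2 or 3 or no-MEC1 31 d replicate 1, with changes of 1.53 to 1.77. At 21 d the groups overlapped, with a change of -0.16 (adjusted p = 0.879). Its 56-base RefSeq span lies whole inside the hairpin of a microRNA gene, Mir3084-2, so probes to one may read the other. The hairpin is shown because this overlap bears on which RNA rose. It is given 5′ to 3′ from RefSeq on GRCm38.p6, chr19:60774329-60774397, minus strand, with the bases of the Snora19 span in capitals.
Snora19: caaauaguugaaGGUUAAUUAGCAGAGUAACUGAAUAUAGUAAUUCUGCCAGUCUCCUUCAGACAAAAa

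Snora62 and Snora16a were smaller rises from dim levels. Snora62, within Rpsa, a ribosomal protein gene, had 5.08, 5.39 and 5.44 in MEC1 mice at 31 d, against 3.88, 4.71 and 4.81 in mice without MEC1, and rose by 0.84 (SE 0.30, adjusted p = 0.0441, limma). Snora16a, within Snhg12, had 4.55, 4.76 and 5.24 in MEC1 mice, against 3.96, 4.36 and 4.18 in mice without MEC1, and rose by 0.68 (SE 0.23, adjusted p = 0.0322, limma). Their groups lay 0.27 and 0.19 apart, and neither call was kept under quantile normalization (0.75 and 0.42) or with arrays centred on their median (0.41 and 0.25). Of the 12 fits without 1 array, 8 lost the call of Snora62 (0.54 to 0.96, the lowest without no-MEC1 31 d replicate 1) and 4 that of Snora16a (0.49 to 0.73, the lowest without MEC1 31 d replicate 3).

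Snora31 had the largest fall among H/ACA RNAs. It guides pseudouridine formation in ribosomal RNA and lies within Tpt1, which encodes an abundant translationally controlled protein. At 31 d its intensity was 8.40, 8.24 and 6.12 in MEC1 mice, against 10.63, 10.84 and 11.08 in mice without MEC1. The groups were 2.23 apart, and the change was -3.26 (SE 0.62, adjusted p = 0.00291, limma). At 21 d it had 8.72, 8.20 and 10.23 with MEC1, against 8.96, 9.36 and 9.90 without, with overlap. Snora68 had 6.05, 5.84 and 4.74 with MEC1 at 31 d, against 6.17, 7.46 and 6.79 without, a change of -1.26 (SE 0.41, adjusted p = 0.0298, limma). Its groups were 0.12 apart, and the call was lost without MEC1 31 d replicate 3 or no-MEC1 31 d replicate 2 or 3 (-1.27 to -0.86). The 12 H/ACA RNAs that did not pass at 31 d ranged over -0.83 to 0.86.

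Of the 41 tested C/D RNAs 5 rose and 10 fell at 31 d, with a median change of -0.51. Those called were 36.6% of the class, below the 43.8% of all clusters (22.6% higher and 21.1% lower). The largest falls after Snord14e were those of Snord61, Snord72 and Snord104, each a guide of ribosomal RNA methylation. Snord61, within Rbmx, a gene of an RNA-binding splicing protein, had 9.33, 8.25 and 5.52 in MEC1 mice at 31 d, against 11.48, 10.93 and 11.61 in mice without MEC1, a change of -3.64 (SE 0.89, adjusted p = 0.0092, limma). Snord72, within the ribosomal protein gene Rpl37, had 6.55, 5.92 and 5.41 with MEC1, against 9.34, 9.96 and 8.85 without, a change of -3.42 (SE 0.49, adjusted p = 0.00088, limma). Snord104, within a predicted non-coding gene, had 4.82, 5.61 and 3.56 with MEC1, against 7.67, 8.39 and 7.50 without, a change of -3.19 (SE 0.68, adjusted p = 0.00488, limma). The highest MEC1 mouse lay below the lowest mouse without MEC1 by 1.60 for Snord61, 2.30 for Snord72 and 1.89 for Snord104. At 21 d their changes were -0.19, -1.25 and -1.62, and none passed.

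Snord49a and Snord49b, a pair of C/D RNAs of 1 non-coding host, 2410006H16Rik, fell together. Snord49a had 5.25, 4.74 and 4.97 in MEC1 mice at 31 d, against 6.52, 7.54 and 7.43 in mice without MEC1, a change of -2.18 (SE 0.48, adjusted p = 0.00613, limma). Snord49b had 4.59, 3.91 and 3.28 with MEC1, against 5.89, 7.47 and 5.77 without, a change of -2.45 (SE 0.71, adjusted p = 0.0194, limma). Neither pair of groups overlapped. The call of Snord49b was lost without MEC1 31 d replicate 3 or no-MEC1 31 d replicate 2 (-2.13 and -1.90). At 21 d Snord49a stood at 6.02, 5.43 and 7.20 with MEC1, against 5.40, 6.98 and 6.12 without, a change of 0.05. The remaining falls, named after their values were seen, were Snord37 (-2.50), Snord17 (-2.09) and Snord92 (-1.57). Of these, Snord17 lost its call without MEC1 31 d replicate 3 or no-MEC1 31 d replicate 2 (-1.40 and -1.88).

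The 5 C/D rises were led by Snord90 and Snord69. Snord90, within Rc3h2, a gene of an RNA-binding ubiquitin ligase, had 5.27, 6.83 and 5.51 in MEC1 mice at 31 d, against 4.66, 4.08 and 2.97 in mice without MEC1, a change of 1.97 (SE 0.65, adjusted p = 0.0322, limma). The call was lost without MEC1 31 d replicate 2 or 3 or no-MEC1 31 d replicate 2 or 3 (1.49 to 2.15), and with arrays centred on their median (1.54). At 21 d it had 5.54, 6.96 and 5.28 with MEC1, against 7.98, 5.90 and 6.67 without, a change of -0.92 (adjusted p = 0.403). The MEC1 mice stood at much the same level on both days, and the mice without MEC1 were the ones that differed, by -2.95 (adjusted p = 0.208, limma). The difference of the 2 MEC1 changes, 2.89, was not called (adjusted p = 0.333).

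Snord69 lies within Gnl3, which encodes the nucleolar GTPase nucleostemin, and was bright. It had 12.77, 13.09 and 12.50 in MEC1 mice at 31 d, against 10.13, 11.95 and 10.98 in mice without MEC1, a change of 1.77 (SE 0.46, adjusted p = 0.0124, limma). The groups were 0.55 apart, and the call was kept without any single array and lost only with the hybridisation-control covariate, where the change was 2.69. Snord11, within Nop58, a gene of a C/D core protein, had 6.10, 6.53 and 6.25 with MEC1 at 31 d, against 5.21, 5.71 and 5.09 without, a change of 0.96 (SE 0.30, adjusted p = 0.0267, limma). At 21 d it had 5.84, 6.75 and 5.65 with MEC1, against 5.41, 4.65 and 5.04 without, a change of 1.05 of like size that missed the threshold (adjusted p = 0.0758). Its groups were apart on both days. The call at 31 d was lost in 4 of the 12 fits without 1 array (without MEC1 31 d replicate 2 or 3, or no-MEC1 31 d replicate 1 or 3), with changes of 0.83 to 0.98, and with arrays centred on their median, where the change was 0.53 (adjusted p = 0.175, limma). The other rises were Snord118 and, with overlapping groups, Snord23 (0.53), whose call was lost in 7 of the 12 fits without 1 array (0.41 to 0.53) and whose change was 0.10 with arrays centred on their median.

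Snord43 and Snord111 came closest at 21 d among C/D RNAs. Snord43, within Rpl3, had 5.96, 6.71 and 4.97 with MEC1 at 21 d, against 3.51, 3.90 and 4.85 without, a change of 1.79 (SE 0.46, adjusted p = 0.0524, limma), and a change of 1.21 at 31 d (adjusted p = 0.0506). Snord111, within the splicing factor gene Sf3b3, had 5.27, 4.44 and 5.25 with MEC1 at 21 d, against 6.43, 6.35 and 5.80 without, a change of -1.21 (SE 0.31, adjusted p = 0.0536, limma), and -0.39 at 31 d. The groups of both RNAs were apart at 21 d, those of Snord43 by 0.12. Of all tested clusters 14.9% had groups apart with MEC1 higher at that day and 13.7% with MEC1 lower. The 26 C/D RNAs that did not pass at 31 d ranged over -1.93 to 1.68.

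**Figure D2:**
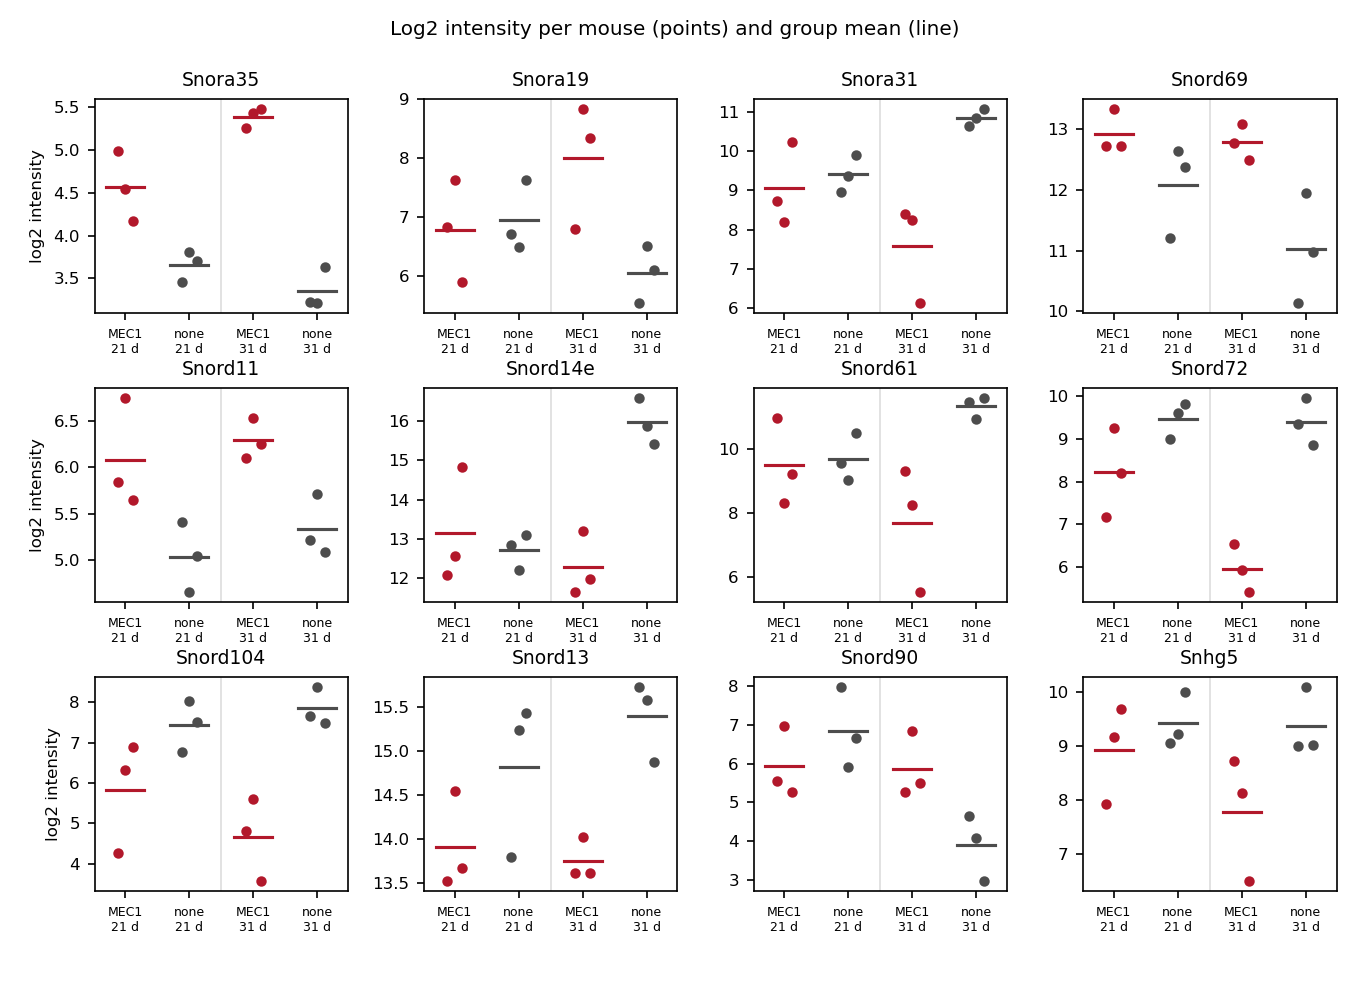
Log2 intensity of 12 genes in each mouse (points) with the mean of 3 mice (line), MEC1 left of no MEC1 at each day, with a separate intensity axis per gene. Snora35 is higher with MEC1 at both days, whereas Snord14e and Snord90 differ between the mice without MEC1 of the 2 days.

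H/ACA and C/D RNAs were set against each other by taking, on each array, the median over a class of each RNA's deviation from its mean in the mice without MEC1 of that day. At 31 d H/ACA minus C/D was 0.38, 0.51 and 0.68 in MEC1 mice, against 0.09, -0.33 and 0.15 in mice without MEC1. These values did not overlap, with means of 0.52 ± 0.15 and -0.03 ± 0.26 (SD, n = 3 each) and a difference of 0.55, given as a description with no test. At 21 d the difference was 0.01, well inside the SD of 0.13. The 31 d difference came from the C/D side: the C/D median stood at -0.51 ± 0.19 with MEC1 and -0.01 ± 0.35 without, and the H/ACA median at 0.01 ± 0.04 with MEC1 and -0.03 ± 0.16 without.

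The direction of change went with the level in mice without MEC1, both in these RNAs and over the array, in a split chosen after seeing the data. The 31 d level is also the term subtracted in the 31 d change, so the 2 share values, and the split is repeated by the level of the mice without MEC1 at 21 d, which do not enter that change. Among RNAs above a log2 intensity of 6 in mice without MEC1 at 31 d, 12 H/ACA RNAs had a median change of -0.34, with 1 higher and 2 lower, and 23 C/D RNAs one of -1.57, with 1 higher and 10 lower. Up to that level the medians were 0.47 over 6 H/ACA RNAs, with 3 higher and 0 lower, and 0.33 over 18 C/D RNAs, with 4 higher and 0 lower. Over all tested clusters the median change at 31 d was 0.54 up to a level of 4 and -0.93 between 8 and 10. Of clusters up to 4, 50.7% were called higher and 0.0853% lower, and of clusters between 8 and 10, 7.27% higher and 56.6% lower. By the level at 21 d, the medians of the 31 d changes above 6 were -0.26 over 13 H/ACA RNAs, with 1 higher and 2 lower, and -1.57 over 22 C/D RNAs, with 2 higher and 9 lower. Up to 6 they were 0.68 over 5 H/ACA RNAs, with 3 higher and 0 lower, and 0.27 over 19 C/D RNAs, with 3 higher and 1 lower. Over all tested clusters the median was then 0.52 up to a level of 4, with 47.9% higher and 0.763% lower, and -0.91 between 8 and 10, with 7.70% higher and 53.8% lower. Between 4 and 6 it was 0.19, with 24.9% higher and 8.08% lower. From 6 to 8 it was -0.55, with 8.91% higher and 39.7% lower. The dim end also holds clusters that, like Snora35, entered the test only through the arrays where they were high.

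**Figure D3:**
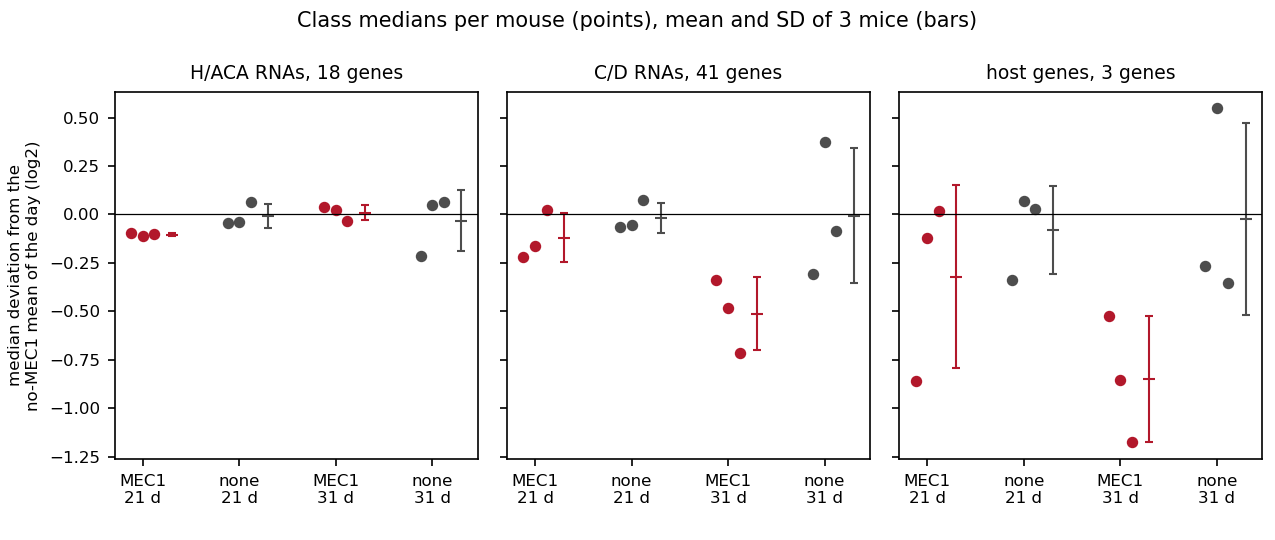
Median deviation of each class on each array from the mean of the mice without MEC1 of the day, in log2 units, for 18 H/ACA RNAs, 41 C/D RNAs and 3 hosts, with the mean and SD of 3 mice beside the points. The C/D medians of the MEC1 mice at 31 d lie between -0.34 and -0.71, and the H/ACA medians of the same mice between -0.03 and 0.04.

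Of the 3 bright Snhg hosts 1 fell at 31 d, where 21.1% of all clusters were called lower, and the changes of the others were negative. Snhg5 had 8.71, 8.12 and 6.50 in MEC1 mice at 31 d, against 8.99, 10.09 and 9.01 in mice without MEC1, a change of -1.59 (SE 0.59, adjusted p = 0.0499, limma). The groups were 0.28 apart, and the call just under the threshold was kept in 3 of the 12 fits without 1 array, with a change of -0.95 without MEC1 31 d replicate 3. Snhg6 had 5.15, 4.82 and 4.50 with MEC1, against 5.56, 6.22 and 5.24 without, a change of -0.85 (adjusted p = 0.0532). Snhg10 had 4.74, 4.79 and 4.81 with MEC1, against 4.82, 5.26 and 5.18 without, a change of -0.31 (adjusted p = 0.0993). At 21 d their changes were -0.50, -0.27 and -0.08 with overlapping groups. The 5 dim hosts lay between 3.56 and 4.22 on average with MEC1 at 31 d and between 3.29 and 3.56 without, beside mean array medians of 4.24 and 3.81.

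RNAs minus hosts, from the same medians, was 0.59 ± 0.31 in MEC1 mice and 0.02 ± 0.28 in mice without MEC1 at 31 d (SD, n = 3 each), a difference of 0.57. At 21 d the difference was 0.15, within the SD of 0.43. The hosts' side rested on 3 genes, and with the 5 dim hosts and 3 dim RNAs included the 31 d difference was -0.42. Snord87, which lies within Snhg6 and 1 other RefSeq gene, had a change of 1.68 (adjusted p = 0.106) at 31 d beside the -0.85 of Snhg6.

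RefSeq spans placed 59 of the 62 snoRNAs inside another gene and 3 in none (Snord118, Snord13 and Snord89), with strand not used. For 24 RNAs in 22 hosts, 1 host each, both clusters were tested. At 21 d none of these RNAs or hosts was called in limma (2 RNAs and 4 hosts had an unadjusted p under 0.05). At 31 d 11 of the 24 RNAs were called, and 14 of the 22 hosts fell while 0 rose, where 21.1% of all clusters were called lower and 22.6% higher. Of the 22 hosts 21 stood above a log2 intensity of 6 in mice without MEC1, with a median of 11.08, and of all clusters between 10 and 12 at that day 56.6% were called lower and 5.64% higher. In 7 pairs both were called, in 4 of them both lower. Over the 24 pairs the RNA was called in 11 and the host in 15, so joint calls alone are no sign of a link. Across the 24 pairs the changes of RNA and host had a Spearman rho of -0.15 and a Pearson r of -0.11, over genes that share the same arrays and of which some share a host.

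The 4 pairs that fell together, named after their values were seen, were C/D RNAs. Snord37 had 4.16, 4.05 and 6.17 in MEC1 mice at 31 d, against 6.95, 7.00 and 7.92 in mice without MEC1. Its host Eef2, which encodes the elongation factor that moves the ribosome along, had 14.57, 14.60 and 12.92 with MEC1, against 16.33, 16.34 and 16.35 without. Neither overlapped, and the changes were -2.50 (adjusted p = 0.00348) for the RNA and -2.31 (adjusted p = 0.00419) for the host. Snord17 changed by -2.09 and its host Snx5, an endosomal sorting nexin, by -1.40. For Snord92 and Wdr43, a gene of ribosome assembly, the changes were -1.57 and -0.76. In the case of Snord14e and Hspa8, the constitutive heat shock cognate protein, they were -3.68 and -0.46. Hspa8 read 19.93, 19.93 and 19.88 in mice without MEC1 at 31 d, and 19.93 is the highest value on any array. Its change may therefore be understated, and the 2 sizes are not compared.

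In 3 pairs RNA and host moved in opposite directions. Snora19 rose by 1.95 while Eif3a fell by 1.33 on the log2 scale. Snora62 rose by 0.84 while Rpsa fell by 0.68, and Snord23 rose by 0.53 while Nop53, a gene of ribosome assembly, fell by 2.04. Some hosts that did not pass held RNAs with wide falls: Tpt1 changed by -0.28 (adjusted p = 0.104) beside Snora31, and Rbmx by -0.35 (adjusted p = 0.167) beside Snord61. The Tpt1 cluster averaged only 7.38 in mice without MEC1 at 31 d, beside a median of 11.08 over the 22 hosts. Whether it reads the main Tpt1 RNA was not tested, so its small change does not show that this host was unchanged. RNAs of 1 host also differed: within Ncl, which encodes nucleolin, Snord82 changed by -1.57 (adjusted p = 0.137) and Snora75 by 0.13 (adjusted p = 0.812), and neither passed.

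**Figure D4:**
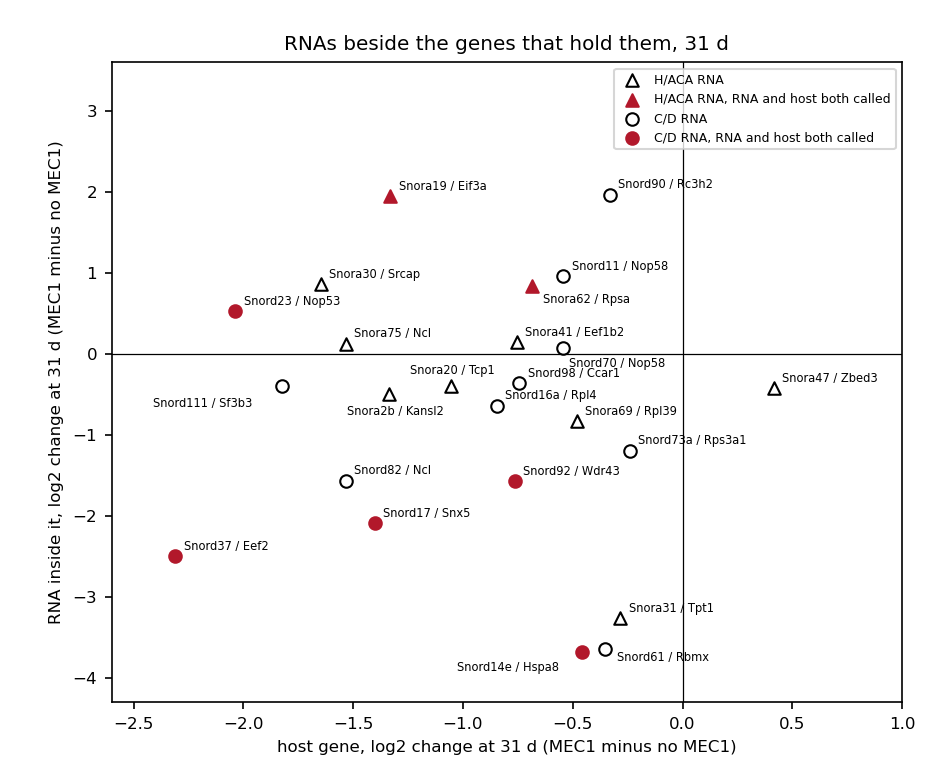
Log2 change at 31 d of 24 snoRNAs (vertical axis) against that of the gene that holds each (horizontal axis), MEC1 minus no MEC1, with the 7 pairs in which both were called filled. Eef2 with Snord37 lies low on both axes, whereas Tpt1 and Rbmx lie near 0 beside RNAs below -3.

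Promoter windows, 250 bases before to 50 after the gene start, are shown for the host that fell among Snhg genes and for the hosts that fell together with their RNA, as far as the RefSeq table holds them. The motifs searched, on both strands, were CACGTG, an E-box bound by Myc and related factors, and TATAAA, a core promoter element. Matches are in capitals, and the motifs overlapped nowhere in these windows. CACGTG was present in 7.24% of all 27025 promoter windows, and TATAAA in 14.2%. The sequences are from RefSeq on GRCm38.p6, 5′ to 3′ on the gene's strand: Snhg5 at chr9:88522848-88523147 (minus), Snx5 at chr2:144270523-144270822 (minus), Eef2 at chr10:81176381-81176680 (plus) and Wdr43 at chr17:71615965-71616264 (plus).
Snhg5: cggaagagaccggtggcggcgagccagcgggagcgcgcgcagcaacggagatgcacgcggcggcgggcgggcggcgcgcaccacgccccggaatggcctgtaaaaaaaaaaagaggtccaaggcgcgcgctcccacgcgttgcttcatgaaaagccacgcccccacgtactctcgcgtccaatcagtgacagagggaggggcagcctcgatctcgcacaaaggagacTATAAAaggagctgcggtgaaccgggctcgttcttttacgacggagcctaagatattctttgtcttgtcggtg
Snx5: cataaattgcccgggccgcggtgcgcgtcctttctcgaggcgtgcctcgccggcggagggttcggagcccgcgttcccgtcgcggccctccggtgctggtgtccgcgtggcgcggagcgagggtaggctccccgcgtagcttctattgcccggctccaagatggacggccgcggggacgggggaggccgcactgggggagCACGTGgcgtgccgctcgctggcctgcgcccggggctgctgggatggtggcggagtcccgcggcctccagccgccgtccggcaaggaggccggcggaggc
Eef2: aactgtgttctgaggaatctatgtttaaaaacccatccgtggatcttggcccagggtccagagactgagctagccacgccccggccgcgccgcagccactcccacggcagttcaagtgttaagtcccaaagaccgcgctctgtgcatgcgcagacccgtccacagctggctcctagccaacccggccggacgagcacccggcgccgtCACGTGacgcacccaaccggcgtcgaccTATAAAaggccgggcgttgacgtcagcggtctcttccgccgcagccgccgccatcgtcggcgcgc
Wdr43: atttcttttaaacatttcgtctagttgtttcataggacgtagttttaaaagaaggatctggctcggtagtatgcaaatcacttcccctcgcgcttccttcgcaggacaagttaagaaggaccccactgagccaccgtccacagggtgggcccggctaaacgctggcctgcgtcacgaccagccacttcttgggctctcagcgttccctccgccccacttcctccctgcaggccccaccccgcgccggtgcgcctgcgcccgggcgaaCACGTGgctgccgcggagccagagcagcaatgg

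The Snhg5 window held TATAAA once and no CACGTG. Each of the other 3 windows held CACGTG once, before the start in Snx5 and Eef2 and after it in Wdr43, and Eef2 also held TATAAA. Among the 26 bright host genes with a window, 6 held CACGTG and 4 TATAAA. A match is a description of these letters and not a site of binding.

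Of 48 tested genes of proteins that work with snoRNAs, 29 fell and 0 rose at 31 d, and 0 passed at 21 d in limma (2 had an unadjusted p under 0.05). Of 2 tested C/D core proteins 1 fell: Fbl, which encodes fibrillarin, the methyltransferase, had 13.71, 13.51 and 12.49 in MEC1 mice, against 14.35, 14.36 and 14.26 in mice without MEC1, a change of -1.09 (SE 0.37, adjusted p = 0.0343, limma). Of 4 H/ACA core proteins 2 fell. Dkc1, which encodes dyskerin, the pseudouridine synthase, had 9.16, 8.90 and 8.68 with MEC1, against 10.29, 10.65 and 10.27 without, a change of -1.49 (SE 0.39, adjusted p = 0.0125, limma). Nop10 had 6.10, 5.77 and 5.88 with MEC1, against 7.19, 6.99 and 7.05 without, a change of -1.16 (SE 0.27, adjusted p = 0.00759, limma). None of these groups overlapped, whereas Gar1 changed by 0.14 (adjusted p = 0.504) and Nhp2 by -0.71 (adjusted p = 0.124).

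Of 11 assembly factors 5 fell and 0 rose at 31 d, with a median change of -0.70. Nolc1, a chaperone that shuttles between nucleolus and Cajal bodies, changed by -1.72 (adjusted p = 0.0241, limma). Tgs1, which methylates the cap of small RNAs, changed by -1.26 (adjusted p = 0.00405, limma). For Shq1, an assembly chaperone of dyskerin, the change was -0.98 (adjusted p = 0.00751, limma). Of 31 genes of ribosomal RNA synthesis and processing 21 fell and 0 rose, with a median of -0.88, led by Imp4 (-1.62), Pes1 (-1.61) and Ncl (-1.53). These shares stand beside 21.1% of all clusters called lower. Of the 48 genes 46 stood above a log2 intensity of 6 in mice without MEC1 at 31 d, the range in which falls were common over the array.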

How the data were processed

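RNA of magnetically separated bone marrow monocytes and macrophages of 12 mice, extracted with a QIAGEN RNeasy mini kit per the labels, was hybridised to Clariom D arrays, 1 per mouse. The authors deposited log2 intensities per transcript cluster; the tools were Expression Console (Affymetrix) with RMA, versions unstated, per the submitters' processing notes, and the genome build is not given in the sources used here. The RefSeq spans of the snoRNAs ran from 28 to 221 bases, with medians of 120.5 for H/ACA and 68 for C/D RNAs. How far the extraction kept RNAs this short was not tested. Nor was it tested whether the probes read mature snoRNAs or longer RNAs of their hosts.

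Of 72688 features 6732 controls were left out. Symbols came from the platform annotation, where repeats of 1 symbol counted once, giving 74 clusters of 70 genes (4 with more than 1), all found in RefSeq (GRCm38.p6). Tested clusters lay above their array's median (50th percentile) in at least 3 arrays, 37240 in all. Group means of all 12 arrays were estimated by limma (version 3.58.1, R 4.3.3), whose two-sided tests were corrected over those clusters by Benjamini-Hochberg, and the fit was tested on simulated data. The number of arrays limits the precision.

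The members, gene lists and tests were chosen with earlier results of these data known. Genes named are, per day and class, up to 4 called rises and 4 called falls with non-overlapping groups, or the 2 smallest p where fewer than 2 passed, the 4 smallest p of the difference between days, the RNAs of precursor processing, and up to 3 called genes per protein list. Alternatives covered the filter, scaling, cluster choice, array weights, empirical Bayes settings, arrays used, a hybridisation-control covariate, a replicate block and leaving out each array. Replicate numbers were not used to pair the samples. Deviations of same-numbered samples correlated at -0.36 to 0.42 (median -0.08), and those of samples with other numbers at -0.49 to 0.40 (median 0.02).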

Additional observations from a re-analysis of the deposited data

How the results depend on the processing

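Against 1 call at 21 d, 3 were found with a filter at the 70th percentile, 19 with array weights, and 0 with quantile normalization, the 6 arrays of the day alone, the control covariate or the replicate block; without single arrays the count ran from 0 to 4. Against 22 calls at 31 d, 13 to 25 were found without single arrays (13 without MEC1 31 d replicate 3) and 0 with the covariate; the others gave 20 to 32, and the replicate block 20. For the mean of both days (21 calls) array weights gave 37, the covariate 0 and single arrays left out 18 to 24. For the difference between days (0 calls) array weights gave 4, and leaving out arrays 0 throughout. Shares of all clusters called in the same fits are not given beside these counts, which therefore do not set the members apart from the array. Of the 22 genes called at 31 d, 11 passed in every fit without 1 array, and 0 in every alternative, the covariate included. H/ACA minus C/D ran from -0.09 to 0.08 at 21 d and from 0.34 to 0.62 at 31 d without single arrays; RNAs minus hosts ran from -0.10 to 0.29 and from 0.39 to 0.72, and was -0.42 at 31 d with no filter, since 5 dim hosts then enter. Under the covariate, a measure on which MEC1 and no-MEC1 arrays do not overlap, 8 called genes changed sign without passing: Snhg5 (2.99), Snora16a (-0.53), Snora31 (1.07), Snora68 (1.63), Snord104 (0.52), Snord17 (3.04), Snord23 (-0.10) and Snord61 (1.66); the cause was not tested. With array weights Snord49a at 21 d was -0.98 and passed. Centring arrays on their median lowers every change by 0.20 at 21 d and 0.43 at 31 d. Signals near the array median limit Snora35, Snord118, Snora16a and the dim hosts.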

Other observations

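A further 42 clusters name a Snora, Snord or Snhg gene beside other genes and were left out of the set. Of the 38 tested, 1 was higher and 22 lower at 31 d, with a median change of -0.92, where 22.6% of all clusters were called higher and 21.1% lower. None was called at 21 d in limma (0 had an unadjusted p under 0.05). Predicted snoRNA genes, which carry Gm symbols and the RefSeq type snoRNA, went mostly the other way. Of 558 tested, 214 were higher and 27 lower at 31 d, with a median change of 0.54. Of all clusters up to a level of 4 without MEC1 at 31 d, 50.7% were called higher and 0.0853% lower, with a median of 0.54. Between 4 and 6 the shares were 22.0% and 7.11%. The levels of the predicted genes were not compared, so their counts do not set them apart from dim clusters. Among the 5 U3 clusters, the C/D RNA that starts precursor cleavage, 4 were higher and 0 lower at 31 d, with a median change of 1.04, and 3 of them held identical values. None of the 6 small Cajal body RNAs (Scarna) was called at 31 d in limma (2 had an unadjusted p under 0.05), with a median change of -0.49. Of 380 tested microRNA precursors 128 were higher and 15 lower at 31 d, with a median change of 0.52. Some smaller groups of other small RNAs rose more. The 2 signal recognition particle RNAs had the same change, 5.72 at 21 d and 4.60 at 31 d, and may be 1 reading. The median change of 2 Y RNAs was 2.99 at 21 d and 2.59 at 31 d. Of 10 spliceosomal RNAs 8 were higher and 1 lower at 31 d, with a median change of 2.59. Whether these signals came from mouse or human RNA was not tested.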
